A study of Mus musculus with 4 samples.

Results

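The delta protocadherins are a family of 10 genes here, taken as delta-1 (Pcdh1, Pcdh7, Pcdh9 and Pcdh11x), delta-2 (Pcdh8, Pcdh10, Pcdh17, Pcdh18 and Pcdh19) and Pcdh20, which stands apart from both subgroups. Their accessible regions were followed in motor neurons sorted from the cervical spinal cord of mouse embryos at embryonic day 12.5 by a ChAT::GFP reporter, which marks cholinergic neurons. ATAC-seq, in which the transposase Tn5 tags open DNA, gave 2 libraries from Hoxa5-deficient embryos, Hoxa5 being a homeodomain transcription factor of cervical segments, and 2 libraries from control littermates. All 4 libraries carried the reporter, and the labels give neither the Hoxa5 allele, nor whether it was removed from all cells, nor the number of embryos in a library. Merging the peak intervals of the 4 libraries where they shared 1 bp gave 199576 regions. A region was given to the protein-coding gene body that held its midpoint, or otherwise to the nearest body within 100 kb, and distances are given to midpoints. By this rule 240 regions belonged to the 10 genes, 141 inside their bodies and 99 outside. The body of Hoxa5 itself (chr6:52201754-52204587) held 2 intervals in every library, the stronger at a percentile of 89.9 and 92.0 of the list in Hoxa5-deficient libraries and 92.3 and 88.5 in control libraries. As the removed part is not in the labels, this does not check them.

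Protocadherins of this family are single-pass adhesion proteins of the cadherin superfamily, expressed in overlapping combinations by subsets of neurons. The delta-1 and delta-2 subgroups differ in the length of the ectodomain and in conserved motifs of the cytoplasmic tail, through which several delta-2 members bind the actin-regulating WAVE complex. They are known for roles in axon outgrowth, cell sorting and synapse formation, and Pcdh10 has been described in mouse phrenic motor neurons, which need Hox5 genes.

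The promoters of 8 members were matched in RefSeq (GRCm38.p6, the assembly of mm10), as windows from 250 bp before to 50 bp after the transcription start; Pcdh1 and Pcdh11x were not matched. A set of 4 windows is shown because their starts spanned the range of openness, from Pcdh17 and Pcdh8 with strong regions, through Pcdh7 with a weaker one, to Pcdh20 with none over its start. Capitals mark every CpG dinucleotide. They are Pcdh17 (chr14:84443313-84443612, plus strand), Pcdh8 (chr14:79771263-79771562, minus), Pcdh7 (chr5:57717831-57718130, plus) and Pcdh20 (chr14:88471347-88471646, minus), each written 5′ to 3′.
Pcdh17: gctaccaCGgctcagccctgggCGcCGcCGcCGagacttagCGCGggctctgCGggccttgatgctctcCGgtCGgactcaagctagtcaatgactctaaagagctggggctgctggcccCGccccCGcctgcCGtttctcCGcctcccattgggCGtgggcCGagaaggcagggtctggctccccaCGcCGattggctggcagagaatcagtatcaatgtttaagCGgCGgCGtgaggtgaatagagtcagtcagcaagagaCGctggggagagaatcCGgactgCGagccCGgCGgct
Pcdh8: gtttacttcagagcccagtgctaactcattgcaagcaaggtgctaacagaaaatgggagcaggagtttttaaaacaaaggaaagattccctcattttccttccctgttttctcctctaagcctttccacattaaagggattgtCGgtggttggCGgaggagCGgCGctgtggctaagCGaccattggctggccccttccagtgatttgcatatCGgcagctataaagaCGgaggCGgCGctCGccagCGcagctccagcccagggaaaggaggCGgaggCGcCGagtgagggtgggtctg
Pcdh7: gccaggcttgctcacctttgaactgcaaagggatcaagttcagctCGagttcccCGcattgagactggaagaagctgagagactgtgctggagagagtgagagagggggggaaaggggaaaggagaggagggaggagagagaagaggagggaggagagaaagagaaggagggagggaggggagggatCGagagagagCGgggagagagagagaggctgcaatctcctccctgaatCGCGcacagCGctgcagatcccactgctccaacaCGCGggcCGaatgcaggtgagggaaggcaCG
Pcdh20: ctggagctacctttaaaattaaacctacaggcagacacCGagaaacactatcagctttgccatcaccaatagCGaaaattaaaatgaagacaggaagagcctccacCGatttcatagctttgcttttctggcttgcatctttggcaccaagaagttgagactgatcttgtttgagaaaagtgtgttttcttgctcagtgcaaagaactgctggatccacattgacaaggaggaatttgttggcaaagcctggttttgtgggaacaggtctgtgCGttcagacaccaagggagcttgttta

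The windows held 26 CpG in Pcdh17, 14 in Pcdh8, 11 in Pcdh7 and 4 in Pcdh20, against a median of 7 over the promoters of 27025 genes. Pcdh20 was thus the member of the 8 with the fewest CpG and, at 43.7%, the lowest GC content, against a median of 52.7% over all promoters. The other members had 24 CpG in Pcdh10, 23 in Pcdh18, and 18 each in Pcdh9 and Pcdh19. The letters CCGCCC, the core of a GC box, occurred on either strand in 4 of the 8 windows (Pcdh10, Pcdh17, Pcdh18 and Pcdh19) and in 35.9% of all promoters. The homeodomain-type word TAATTA and the Pbx-Hox-type word TGATNNAT were in none of the 8 windows, and in 5.31% and 9.04% of all promoters. CANNTG, an E-box, was in 2 of the 8 and in 72.1% of all promoters. Both strands were searched for each word, matches to different words were allowed to overlap, and a match describes the letters of the window and is not a binding site.

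Apart from Pcdh20, the starts or gene ends of the delta protocadherins were open in both genotypes. Of the 10 regions at a start or, for the unmatched Pcdh1 and Pcdh11x, within 1 kb of a gene end that were found in all 4 libraries, none passed a test of rank between genotypes in limma. Of all regions found in all 4 libraries, 20.6% passed. Strength is given as a percentile, the share of the intervals of the same library's list with a lower −log10 p. As the lists differed in length, an order of percentiles between genotypes describes levels and does not by itself show a change. In these bulk libraries a region open in fewer cells and a region cut less often per cell cannot be told apart. The percentile of Pcdh17, which supports the joint extension of axons in mouse forebrain, was 96.5 and 96.1 in Hoxa5-deficient libraries 1 and 2, against 96.1 and 95.4 in control libraries 1 and 2 (chr14:84443034-84443834). Pcdh8, an activity-regulated member that drives uptake of N-cadherin in rat neurons, had 96.4 and 95.4 in Hoxa5-deficient libraries and 96.5 and 97.1 in control libraries (chr14:79770307-79771746). Both genes were near the top of every list, with overlapping groups at Pcdh17 and both Hoxa5-deficient libraries below both control libraries at Pcdh8. In the authors' units the Pcdh17 region had a −log10 p of 277 and 356 in Hoxa5-deficient libraries and 260 and 199 in control libraries, and fold values over background of 12.7 and 13.7 in Hoxa5-deficient libraries and 11.8 and 11.9 in control libraries. Pcdh9 stood at 95.9 and 97.0 in Hoxa5-deficient libraries and 96.2 and 97.0 in control libraries (chr14:93890337-93891708). Pcdh10, which binds the WAVE complex, had 93.5 and 92.3 in Hoxa5-deficient libraries and 95.1 and 92.5 in control libraries (chr3:45378057-45378556). Its groups overlapped, as did those of Pcdh9.

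The X-linked Pcdh19, a partner of N-cadherin, had percentiles of 90.3 and 90.6 in Hoxa5-deficient libraries and 90.7 and 87.4 in control libraries at its start (chrX:133688318-133689378). Pcdh18, which binds the adaptor Dab1, had 82.3 and 80.7 in Hoxa5-deficient libraries and 87.5 and 81.9 in control libraries (chr3:49756207-49757656). At the lower-coordinate end of Pcdh11x the values were 82.3 and 73.3 in Hoxa5-deficient libraries and 75.8 and 73.2 in control libraries (chrX:120289923-120290869). Groups overlapped at all of these, at Pcdh18 by a narrow margin. The start of Pcdh7, described as a guide of retinal axons in frogs, had 70.3 and 70.5 in Hoxa5-deficient libraries and 61.9 and 45.0 in control libraries (chr5:57717850-57718431), so that its groups did not overlap. A broader and stronger region had its midpoint 0.705 kb outside the body and before that start, with 86.1 and 85.9 in Hoxa5-deficient libraries and 85.8 and 82.4 in control libraries (chr5:57714633-57716247). Pcdh1, known from airway epithelium, had 89.3 and 91.9 in Hoxa5-deficient libraries and 92.2 and 92.0 in control libraries at its upper-coordinate end (chr18:38210553-38213016). Both Hoxa5-deficient values were below both control values there, while the groups overlapped at the weaker region of its other end (chr18:38185117-38186565), with 75.7 and 67.3 in Hoxa5-deficient libraries and 63.3 and 79.7 in control libraries.

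Pcdh20 had no region over its annotated start in any library. The nearest one, found in all 4, ended 71 bp inside the gene (chr14:88470396-88471325), with percentiles of 78.9 and 80.1 in Hoxa5-deficient libraries and 75.8 and 70.7 in control libraries. A further region within 1 kb of the lower-coordinate end of Pcdh11x was found in control library 2 alone. The strongest region of Pcdh1 was not at an end of the gene but 41.0 kb from its body (chr18:38144463-38145373), at 97.3 and 97.1 in Hoxa5-deficient libraries and 97.0 and 96.1 in control libraries. In Pcdh11x the strongest region found in all 4 libraries lay 2.97 kb inside the lower-coordinate end (chrX:120292779-120293642). It had 86.7 and 85.5 in Hoxa5-deficient libraries and 83.3 and 79.2 in control libraries. Regions at starts or ends, 11 in all, had a median width of 1061 bp, and the 10 found in all 4 libraries a median mean percentile of 90.5. The 62 other member regions found in all 4 libraries had medians of 687 bp and 59.5. Regions away from starts were thus narrower and lower in the lists.

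**Figure D1:**
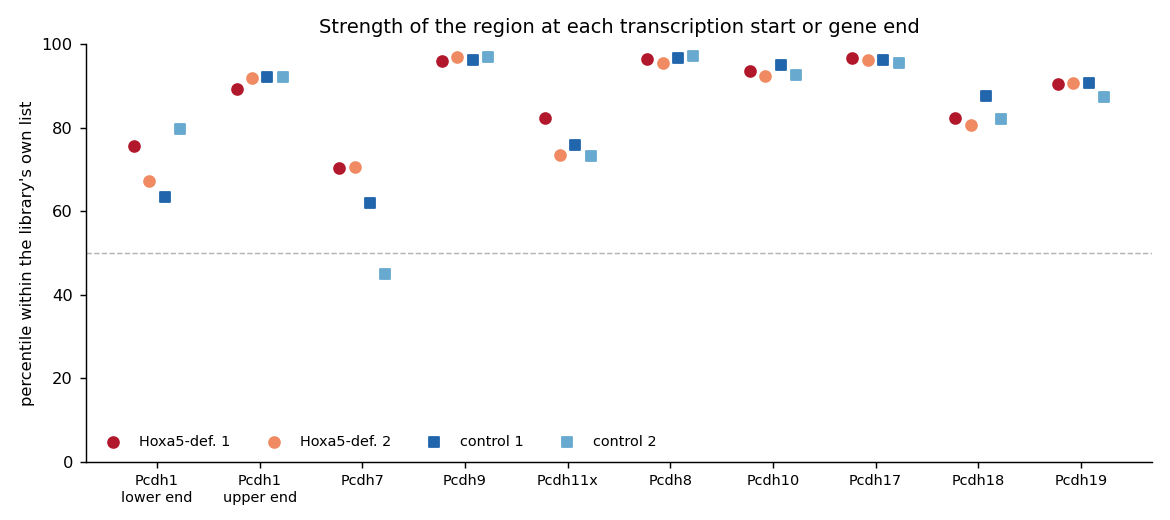
Percentile of the region at each transcription start (Pcdh1 and Pcdh11x: gene end) within each library's own list, for the 10 such regions found in all 4 libraries; circles are Hoxa5-deficient and squares control libraries, 1 point per library. Pcdh8, Pcdh9 and Pcdh17 sit above 95 in every library, and Pcdh7 is the gene whose control libraries, at 61.9 and 45.0, lie farthest below its Hoxa5-deficient libraries.

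The number of regions per library at the 10 genes was 153 and 161 in Hoxa5-deficient libraries and 121 and 127 in control libraries. Inside gene bodies there were 86 and 93 in Hoxa5-deficient libraries against 66 and 76 in control libraries, and outside 67 and 68 against 55 and 51. The groups did not overlap, with means of 157 ± 5.66 in Hoxa5-deficient and 124 ± 4.24 in control libraries (SD, n = 2 each), but the whole lists differed the same way, with 122736 and 133896 regions in Hoxa5-deficient and 109746 and 106783 in control libraries. As a share of its library's regions the family made up 0.1247% and 0.1202% in Hoxa5-deficient libraries and 0.1103% and 0.1189% in control libraries, so that the second values of both genotypes were close. An exact two-sided permutation test over the 4 libraries gave p = 0.333 for the number and for the share, the smallest p that 2 against 2 libraries allow.

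**Figure D2:**
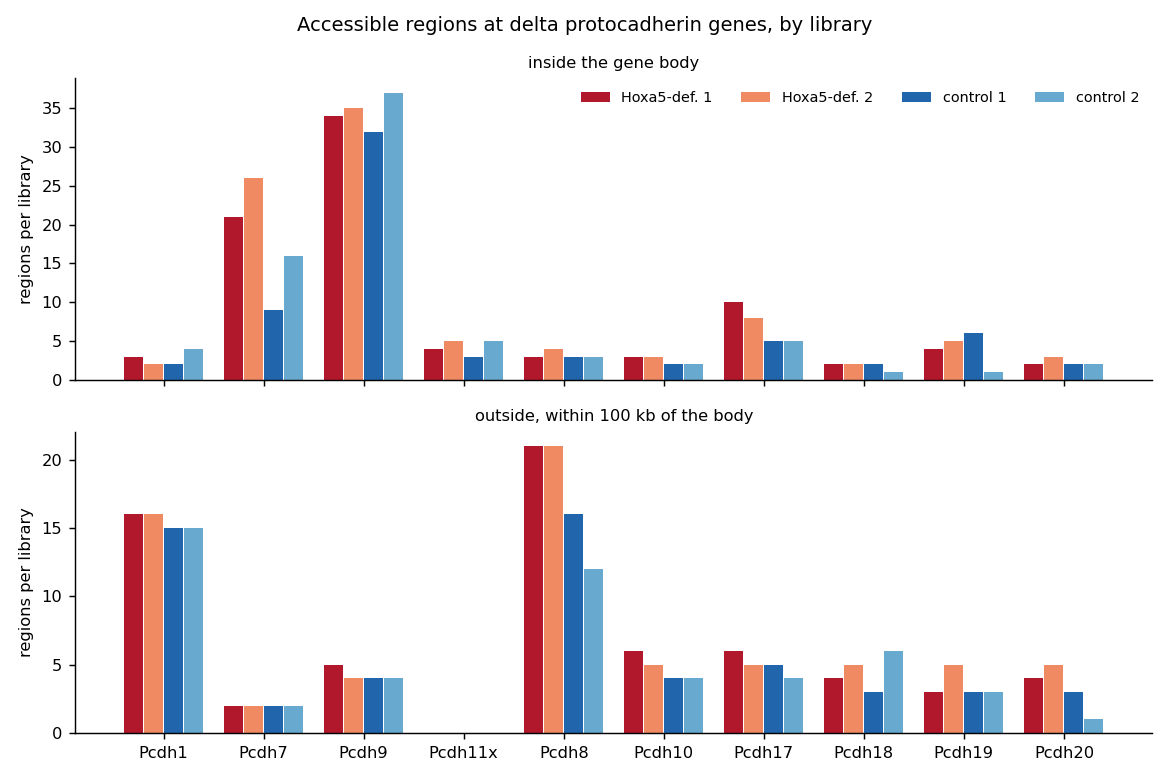
Number of accessible regions per library at each delta protocadherin, inside the body (upper panel) and outside within 100 kb (lower panel); bars are single libraries, Hoxa5-deficient left of control, and start at 0. Pcdh7 has 21 and 26 regions inside its body in Hoxa5-deficient libraries against 9 and 16 in control libraries, while Pcdh9 has 34 and 35 against 32 and 37.

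Inside the bodies of the 10 genes, 16 of 141 regions were found in both Hoxa5-deficient and neither control library (11.3%), and 5 in both control and neither Hoxa5-deficient library (3.55%). Over all regions inside protein-coding bodies these shares were 9.11% and 3.40%, and inside bodies of 200 kb or more they were 12.9% and 3.43%. The family thus stood near the background in both directions. Outside the bodies, 9 of 99 regions were of the first kind (9.09%) and 4 of the second (4.04%), against 9.24% and 3.69% of all regions outside bodies within 100 kb. Regions found in exactly 1 library of each genotype, which do not separate the genotypes, were 12 of 141 inside (8.51%, against 4.41% over all bodies and 4.56% in bodies of 200 kb or more), 8 of them in Pcdh9. Outside there were 4 of 99 (4.04%, against 4.59% of all regions outside). Inside the bodies 39 regions were found in all 4 libraries (27.7%, against 35.1% over all bodies and 27.6% in bodies of 200 kb or more), and 54 in a single library (38.5% over all bodies and 40.2% in bodies of 200 kb or more). Outside, 33 were found in all 4 (33.3%, against 34.0%) and 36 in a single library (38.6% of all regions outside). With as many intervals in every library as in the shortest list, the 16 became 10 (7.63%, against 7.49% over all bodies). The 5 stayed 5 (3.82%, against 4.80%). With 1 library left out the rule for presence is looser by construction, so member counts stand beside the share over all regions at the same setting. Regions inside bodies found in Hoxa5-deficient libraries alone were then 33 without Hoxa5-deficient library 1 (25.4%, against 23.5% over all bodies), 30 without Hoxa5-deficient library 2 (23.4%, against 19.8%), and 23 without control library 1 (17.3%, against 13.4%) or 2 (18.4%, against 13.4%). Those found in control libraries alone were 6 (4.62%, against 5.35%) and 5 (3.91%, against 5.85%) without Hoxa5-deficient library 1 or 2, and 21 (15.8%, against 12.95%) and 15 (12%, against 15.1%) without control library 1 or 2. Outside bodies, regions found in Hoxa5-deficient libraries alone were 23 (25.6%, against 23.9%) and 21 (23.6%, against 19.7%) without Hoxa5-deficient library 1 or 2, and 17 (17.9%, against 13.5%) and 10 (10.8%, against 13.6%) without control library 1 or 2. Those in control libraries alone were 7 (7.78%, against 5.79%), 5 (5.62%, against 6.42%), 11 (11.6%, against 13.4%) and 9 (9.68%, against 15.2%) without Hoxa5-deficient library 1, Hoxa5-deficient library 2, control library 1 and control library 2.

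**Figure D3:**
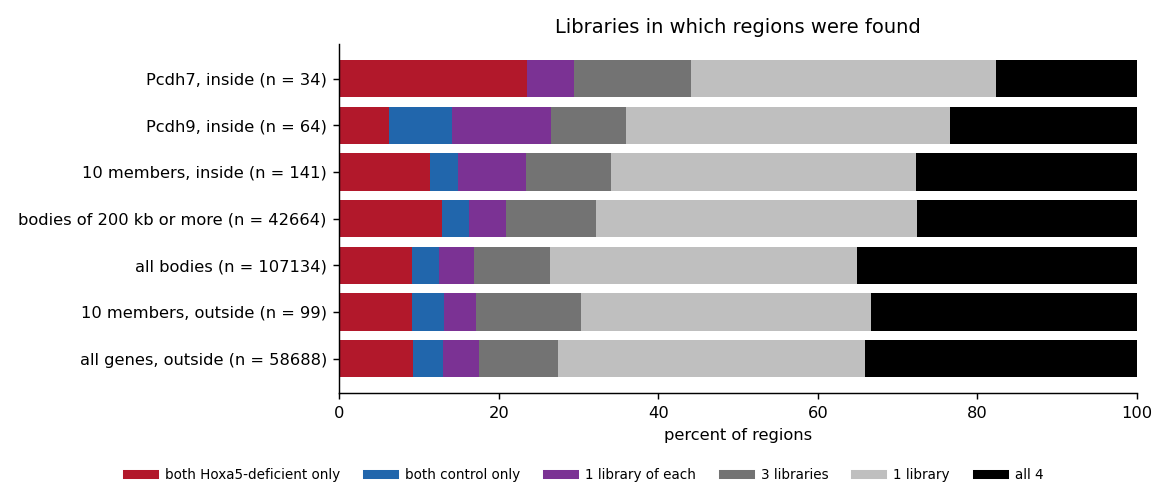
Libraries in which regions were found, as a percent of the regions of each set, with the number of regions beside each name. The 10 members inside bodies are close to all bodies of 200 kb or more; Pcdh7 has 23.5% of its regions in both Hoxa5-deficient libraries alone, and Pcdh9 has 6.25%.

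The subgroups differed in where their regions lay. Of the 144 delta-1 regions, 111 were inside bodies, most of them in Pcdh9 (64) and Pcdh7 (34), whose bodies span 879 and 417 kb. Pcdh11x, with a body of 620 kb on the X chromosome, held 8, or 1.29 per 100 kb, against 7.28 in Pcdh9 and 8.15 in Pcdh7. Of the 87 delta-2 regions, 60 lay outside, 30 of them around Pcdh8, whose body spans 4.54 kb. The share of intervals on the X chromosome was 1.608% and 1.903% in Hoxa5-deficient libraries and 1.565% and 1.751% in control libraries, and the lists held 29 and 11 intervals on the Y chromosome in Hoxa5-deficient libraries and 22 and 19 in control libraries. The sex of the embryos is not in the labels, and its part in the values of Pcdh11x and Pcdh19 was not tested.

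Pcdh7 had 8 regions inside its body found in both Hoxa5-deficient libraries and neither control library, and none of the reverse kind (23.5% of its 34 regions, against 9.11% of all regions inside bodies and 12.9% in bodies of 200 kb or more). In all, 21 and 26 regions were found inside it in Hoxa5-deficient libraries, against 9 and 16 in control libraries. The groups did not overlap, and neither did those of all regions inside bodies, with 65907 and 71968 in Hoxa5-deficient and 61555 and 59004 in control libraries. The 8 regions lay from 61.2 to 392 kb into the gene and were 215 to 518 bp wide. A run of 4 of them lay between 61.2 and 75.8 kb, which left 4 spread over the rest of the gene. The strongest was 141 kb into the gene (chr5:57858473-57858990), with percentiles of 61.1 and 58.5 in Hoxa5-deficient libraries. Most of the 8 were weak, with the lower of the 2 percentiles at 0.982 to 58.5 and a median of 14.9. With only peaks of −log10 q of 5 or more the count was 2, with 1 region of the reverse kind, and with equal numbers of intervals it was 5 with none of the reverse kind. It was 13 and 10 without Hoxa5-deficient library 1 or 2, and 9 and 12 without control library 1 or 2, where 4 and 2 regions were found in the remaining control library alone. Over all bodies the share in Hoxa5-deficient libraries alone was 12.2% at the stricter q and 7.49% with equal numbers. It was 23.5% and 19.8% without Hoxa5-deficient library 1 or 2, and 13.4% without either control library. Totals of Pcdh7 at these settings were not counted, so its counts show no rise or fall in share. Of the 6 regions inside Pcdh7 that were found in all 4 libraries, 0 passed limma, against 20.6% of all regions found in all 4. An unadjusted p under 0.05 in limma was reached by 1 of the 6, against 34.6% of all such regions.

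Pcdh9, a long delta-1 gene of synapses and dendrites, had no such lean. Of its 64 regions inside the body, 4 were found in both Hoxa5-deficient libraries alone (6.25%), 5 in both control libraries alone (7.81%) and 8 in 1 library of each genotype (12.5%). Its number per library was 34 and 35 in Hoxa5-deficient libraries and 32 and 37 in control libraries, so that the groups overlapped. The 4 regions found in Hoxa5-deficient libraries included the strongest such region of the family, 604 kb into the gene (chr14:93286254-93286970), with percentiles of 77.8 and 82.3. Another lay 77.4 kb into the gene (chr14:93812921-93813586), with 61.1 and 65.6. The weakest of the 4 (chr14:93069053-93069348) had 17.5 and 0.982. Of the 5 found in control libraries, the strongest, 509 kb into the gene (chr14:93381246-93381465), had 50.5 and 51.3, and 3 of the 5 shared percentiles of 2.11 and 17.6, at the foot of the lists. With peaks of −log10 q of 5 or more the counts were 7 in Hoxa5-deficient and 2 in control libraries alone. Without Hoxa5-deficient library 1 or 2 they were 10 and 11 in the remaining Hoxa5-deficient library alone, against 6 and 5 in control libraries alone. Without control library 1 or 2 they were 7 and 6 in Hoxa5-deficient libraries alone, against 13 and 11 in the remaining control library. Over all bodies the share in control libraries alone was 5.35% and 5.85% without Hoxa5-deficient library 1 or 2. It was 12.95% and 15.1% without control library 1 or 2, against 3.40% with all 4 libraries. Totals of Pcdh9 at these settings were not counted. The difference between Pcdh7 and Pcdh9 was not tested.

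**Figure D4:**
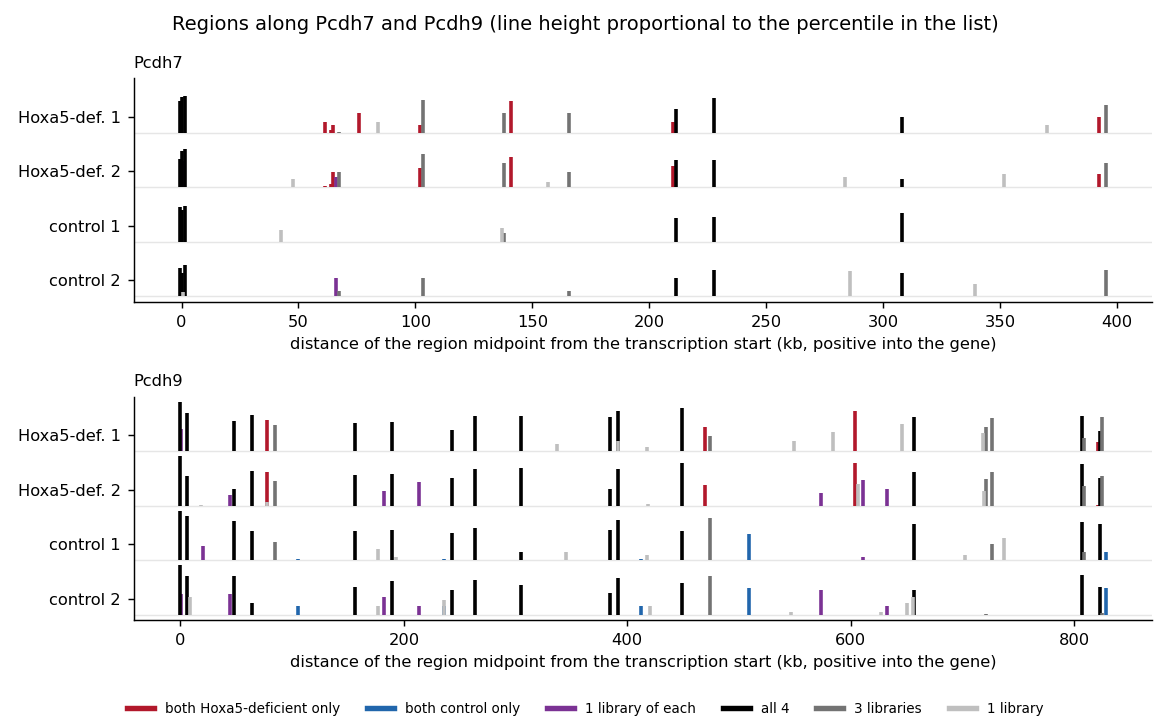
Regions inside Pcdh7 and Pcdh9 by library, at their distance in kb from the transcription start; the height of a line is proportional to the percentile of the region in that library's list, and its colour gives the libraries in which the region was found. In Pcdh7 the regions found in both Hoxa5-deficient libraries alone begin 61.2 kb into the gene, and in Pcdh9 regions of every kind are spread along 879 kb.

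Among delta-2 members, Pcdh8 had 4 regions found in both Hoxa5-deficient libraries alone, all outside its body, and none of the reverse kind there (13.3% and 0 of 30, against 9.24% and 3.69% of all regions outside). The strongest was 76.1 kb from the body (chr14:79847185-79847713), with percentiles of 67.2 and 68.7 in Hoxa5-deficient libraries. Another lay 3.93 kb from it (chr14:79762484-79763200), with 58.4 and 67.5. Regions around Pcdh8 numbered 21 in each Hoxa5-deficient library and 16 and 12 in control libraries, so that the groups did not overlap; all regions outside bodies did not overlap either, with 35545 and 39288 in Hoxa5-deficient and 33471 and 32202 in control libraries. Pcdh17 had 2 regions found in both Hoxa5-deficient libraries alone, both inside the body, and Pcdh10 had 2, 1 inside and 1 outside. In Pcdh17 the region 11.0 kb into the gene (chr14:84454219-84454848) had 49.4 and 35.5. The one outside Pcdh10, 89.5 kb from its body (chr3:45523920-45524293), had 44.5 and 32.4. Pcdh19 had 1 region of each kind, Pcdh18 had 1 in control libraries alone, and Pcdh20 had 1 in Hoxa5-deficient libraries alone. The region of Pcdh18 lay 0.458 kb from its body, on the side of the start (chr3:49757761-49757922), with 8.08 and 36.4 in control libraries. Pcdh1 had 2 regions in Hoxa5-deficient and 1 in control libraries alone, all outside, and Pcdh11x had none of either kind. Over the whole family the lower percentile of such regions had a median of 20.8 for the 25 in Hoxa5-deficient libraries and 8.08 for the 9 in control libraries, against 28.0 and 26.6 over all such regions.

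Regions found in all 4 libraries, 72 at the family and 65789 in all, were compared by rank. The −log10 p of each region was ranked among these regions within a library and turned into a normal score, in which 1 unit is 1 SD of the ranked regions, and limma was fitted over all 65789 with Benjamini-Hochberg adjustment and a threshold of 0.05. At the family 15 of 72 regions passed (20.8%), 8 higher and 7 lower in Hoxa5-deficient libraries. Over all regions 20.6% passed, 11.1% higher and 9.53% lower. Of the 57559 shared regions inside bodies or within 100 kb, to which members belong by rule, 19.5% passed, 5686 higher and 5517 lower. The family thus stood near both backgrounds. The median difference was −0.00901 over the 72 regions, of which 35 were above 0 and 37 below, against −0.0287 over all. Higher member regions were 3 of 73 without Hoxa5-deficient library 1 (4.11%, against 6.49% of all regions) and 5 of 78 without Hoxa5-deficient library 2 (6.41%, against 5.36%). Lower ones were 4 of 81 without control library 1 (4.94%, against 7.33%). Without the trend of the variance on the mean in limma, 2 of the 72 passed, both higher, and 4.046% of all regions. Those 2 were the regions 51.0 kb from Pcdh8 and 29.1 kb from Pcdh17.

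Of the 10 regions at starts or gene ends, 0 passed in limma, against 20.6% of all shared regions. An unadjusted p under 0.05 in limma was reached by 3 of the 10, against 34.6% of all shared regions. Differences of the 10 ran from −0.292 to 0.468, with standard errors from 0.0846 to 0.276 and adjusted p from 0.112 to 0.972 in limma. Without control library 2 the starts of Pcdh10 (difference −0.291, adjusted p = 0.0387 in limma) and Pcdh18 (−0.419, adjusted p = 0.0269 in limma) passed as lower in Hoxa5-deficient libraries. In windows around summits, 1 window at an end of Pcdh1 passed as higher (1.24, adjusted p = 0.0482 in limma). At the starts a p above the threshold does not show that the genotypes were alike.

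**Figure D5:**
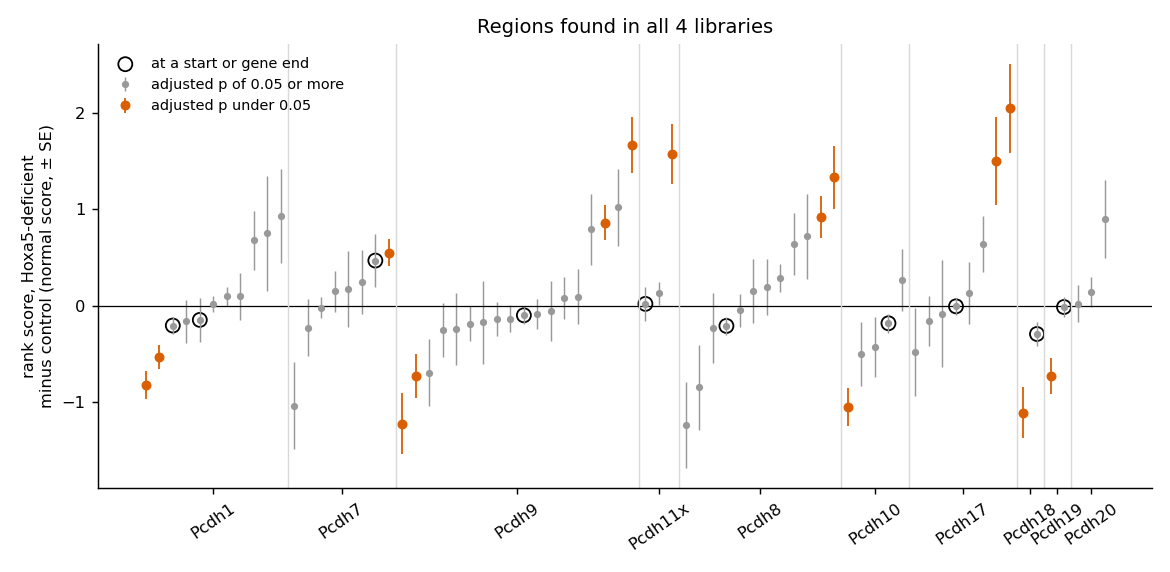
Difference in rank score, Hoxa5-deficient minus control, for the 72 family regions found in all 4 libraries, grouped by gene; bars are the standard error from limma, orange points have an adjusted p under 0.05, and rings mark regions at a start or gene end. Of 15 orange points 8 lie above 0 and 7 below, and none carries a ring.

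The 8 regions that were higher in Hoxa5-deficient libraries belonged to Pcdh7, Pcdh9, Pcdh11x, Pcdh8 and Pcdh17. The largest difference was 29.1 kb beyond Pcdh17 (chr14:84566237-84567087), with percentiles of 71.5 and 61.5 in Hoxa5-deficient libraries and 5.80 and 5.54 in control libraries. The score, Hoxa5-deficient minus control, differed by 2.04 ± 0.457 (SE; limma adjusted p = 0.0065), and the groups lay far apart. A second region of this gene, 55.7 kb into it (chr14:84498876-84499655), had 66.6 and 65.6 in Hoxa5-deficient libraries and 32.4 and 5.54 in control libraries. Control library 2 was the lowest there. It passed with a difference of 1.501 ± 0.455 (limma adjusted p = 0.0306), but not without Hoxa5-deficient library 1 (0.148), Hoxa5-deficient library 2 (0.112) or control library 2 (0.0861, with a difference of 0.862), each in limma. The first region did not pass without Hoxa5-deficient library 1 (limma adjusted p = 0.0838).

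Pcdh9 had 2 regions in this direction. The one 85.5 kb outside its body, on the side of the start (chr14:93977845-93978757), had percentiles of 83.5 and 85.2 in Hoxa5-deficient libraries and 22.5 and 48.8 in control libraries, a difference of 1.66 ± 0.291 (limma adjusted p = 0.0015). It had the lowest adjusted p of the family and passed without any 1 library. The other, 449 kb into the gene (chr14:93441356-93442391), had 83.3 and 83.2 in Hoxa5-deficient libraries and 56.0 and 62.0 in control libraries. Its difference was 0.858 ± 0.181 (limma adjusted p = 0.00462), and 0.679 to 0.886 with 1 library left out. Inside Pcdh11x, an X-linked delta-1 member (chrX:120871896-120872373), 1 region had 81.0 and 77.8 in Hoxa5-deficient libraries and 22.5 and 39.1 in control libraries. The groups were well apart, with a difference of 1.57 ± 0.314 (limma adjusted p = 0.00337), which did not pass without Hoxa5-deficient library 1 (0.0526).

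Pcdh8 had 2 such regions. Inside the gene, 1.47 kb from its start (chr14:79769596-79770098), percentiles were 83.0 and 81.1 in Hoxa5-deficient libraries and 63.3 and 47.2 in control libraries, a difference of 0.920 ± 0.218 (limma adjusted p = 0.00902). It was 0.6001 without control library 2, and with the authors' fold in place of −log10 p it did not pass (limma adjusted p = 0.0760). The region over the start beside it was lower in both Hoxa5-deficient libraries than in both control libraries and did not pass. Outside, 51.0 kb from the body (chr14:79821582-79823025), they were 72.7 and 75.9 in Hoxa5-deficient libraries and 27.8 and 34.7 in control libraries, a difference of 1.33 ± 0.325 (limma adjusted p = 0.0106). Without Hoxa5-deficient library 1 neither passed (limma adjusted p = 0.0712 inside and 0.0754 outside), and without Hoxa5-deficient library 2 the one outside did not (limma adjusted p = 0.104). Around Pcdh7, the region 95.5 kb beyond the body (chr5:58228388-58229169) had 86.3 and 88.2 in Hoxa5-deficient libraries and 69.7 and 76.6 in control libraries. It passed with a difference of 0.551 ± 0.135 (limma adjusted p = 0.0107), but not without Hoxa5-deficient library 2 (0.0536).

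The 7 regions that were lower in Hoxa5-deficient libraries belonged to Pcdh1, Pcdh9, Pcdh10, Pcdh18 and Pcdh19. Of the 7, 3 lay within 10 kb of a matched start, and of the 8 higher ones, 1 did. The 2 lower regions of Pcdh1 and the 1 higher region of Pcdh11x could not count, as these genes had no matched start. The share of all shared member regions within 10 kb of a start was not counted, so these numbers do not show a difference. Before the start of Pcdh10, 2.34 kb away (chr3:45375812-45376298), percentiles were 60.4 and 55.5 in Hoxa5-deficient libraries and 82.9 and 79.0 in control libraries. The difference was −1.05 ± 0.199 (limma adjusted p = 0.00249) and passed without any 1 library. The groups were clearly apart, whereas the region over the start of the same gene overlapped between genotypes. Outside Pcdh19, 3.28 kb from its body on the side of the start (chrX:133692192-133692451), percentiles were 66.2 and 62.7 in Hoxa5-deficient libraries and 81.7 and 76.8 in control libraries. This difference of −0.729 ± 0.184 (limma adjusted p = 0.0126) did not pass without control library 1 (0.0618) or with fold in place of −log10 p (0.0670).

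Before Pcdh18, 12.1 kb from its start (chr3:49769137-49769729), percentiles were 41.7 and 54.9 in Hoxa5-deficient libraries and 77.9 and 72.1 in control libraries, a difference of −1.10 ± 0.268 (limma adjusted p = 0.0101), which passed without any 1 library. Inside Pcdh9, 47.7 kb from the start (chr14:93842628-93843262), they were 58.4 and 32.4 in Hoxa5-deficient libraries and 76.6 and 74.6 in control libraries, a difference of −1.22 ± 0.315 (limma adjusted p = 0.0142), which passed without any 1 library but was −0.711 without Hoxa5-deficient library 2 (limma adjusted p = 0.0467). Both genes had values well below the controls there. Nearer the start of Pcdh9, at 5.94 kb (chr14:93884482-93884989), they were 75.0 and 57.3 in Hoxa5-deficient libraries and 85.1 and 76.0 in control libraries. The groups nearly met, and the difference of −0.723 ± 0.227 (limma adjusted p = 0.036) did not pass without Hoxa5-deficient library 2 (0.236, with a difference of −0.337) or control library 1 (0.126), with fold in place of −log10 p (0.0532), or with peaks of −log10 q of 5 or more (0.0516). Pcdh9 thus held shared regions that passed in both directions, 2 higher and 2 lower among 18. This was 22.2%, near the 20.6% of all shared regions (11.1% higher and 9.53% lower).

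Pcdh1 had 2 regions that were lower and none that was higher among its 11 shared regions (18.2%, against 20.6% of all shared regions). Inside the gene (chr18:38190398-38191152) percentiles were 72.7 and 67.2 in Hoxa5-deficient libraries and 86.7 and 84.1 in control libraries, a difference of −0.820 ± 0.149 (limma adjusted p = 0.00188), which passed without any 1 library. Outside, 11.1 kb from the body (chr18:38174160-38175504), they were 78.5 and 78.0 in Hoxa5-deficient libraries and 88.4 and 84.4 in control libraries. That difference, −0.529 ± 0.124 (limma adjusted p = 0.00824), did not pass without control library 1 (0.0507) or with fold in place of −log10 p (0.103). By subgroup, 4 of 40 delta-1 regions were higher and 4 lower (20%), and 4 of 29 delta-2 regions were higher and 3 lower (24.1%). The 3 shared regions of Pcdh20 did not pass.

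Proteins reported to bind or act with delta protocadherins were encoded by 14 further genes: subunits of the WAVE complex (Nckap1, Cyfip1, Cyfip2, Wasf1, Wasf3, Abi1, Abi2 and Brk1), the kinase Taok2, the phosphatase Ppp1ca, Set, Dab1, N-cadherin (Cdh2) and beta-catenin (Ctnnb1). Their 375 regions included 48 found in both Hoxa5-deficient libraries alone (12.8%, against 9.16% of all regions in or near genes) and 14 in both control libraries alone (3.73%, against 3.50%). Dab1, an adaptor that binds Pcdh18, held 202 of the 375 regions. These included 34 of the 48 (16.8% of its regions) and 7 of the 14 (3.47%). Cdh2 had 7 and 4 among 68 (10.3% and 5.88%), and Cyfip2 had 4 and 1 among 30 (13.3% and 3.33%). Inside bodies of 200 kb or more the shares over all genes were 12.9% and 3.43%. A further 21 were found in 1 library of each genotype (against 4.48% of all regions in or near genes). Of the 89 partner regions found in all 4 libraries, 13 were higher and 10 lower in Hoxa5-deficient libraries in limma. This was 25.8%, against 20.6% of all shared regions and 19.5% of those in or near genes. Dab1 had 10 higher and 1 lower among 46 (23.9%), and Cdh2 had 1 higher and 4 lower among 12 (41.7%). Ctnnb1 had 1 higher and 4 lower among 6 (83.3%). Cyfip2 had 1 higher among 7, Wasf1 had 1 lower among 6, and the other partners had none. Of all shared regions inside bodies of 200 kb or more, 24.1% passed.

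Markers of the sorted cells and of other cells were read as peaks within 1 kb of a gene end. Medians of percentiles over a list count a gene without a peak as lowest. The peak lists differed in length, so higher or lower percentiles in 1 genotype do not by themselves show a change. Motor neuron markers had a peak at 6 of 7 genes in each Hoxa5-deficient library and 7 of 7 in each control library, with medians of 67.5 and 73.2 in Hoxa5-deficient and 72.3 and 70.9 in control libraries, so that the groups overlapped. Chat and Slc18a3, which lie in 1 locus, were higher in both Hoxa5-deficient libraries (91.4 and 93.4) than in both control libraries (80.4 and 85.9), Isl2 and Lhx3 were lower, and Isl1, Slc5a7 and Mnx1 overlapped. Isl2 had no peak in Hoxa5-deficient libraries, against 47.4 and 41.1 in control libraries. Neural progenitor markers had a peak at 6 of 6 genes in every library, with medians of 77.2 and 80.8 in Hoxa5-deficient and 89.6 and 87.5 in control libraries. Sox2, Sox9, Hes5 and Nkx6-1 were lower in both Hoxa5-deficient libraries than in both control libraries, while Olig2 and Vim were higher. Of the spinal interneuron markers, Pax2 had 32.6 and 48.02 in Hoxa5-deficient libraries and 72.6 and 63.6 in control libraries. Lhx1 had 90.6 and 92.3 in Hoxa5-deficient libraries and 95.2 and 93.5 in control libraries, and Tlx3 had 77.03 and 75.2 in Hoxa5-deficient libraries and 90.1 and 87.9 in control libraries, so that all 3 were lower in both Hoxa5-deficient libraries than in both control libraries. Glial markers had a peak at 4 of 4 genes in every library, with medians of 68.4 and 67.7 in Hoxa5-deficient and 66.6 and 67.4 in control libraries. Fabp7 was lower in both Hoxa5-deficient libraries than in both control libraries, while Slc1a3, Sox10 and Aldh1l1 were higher. Blood and endothelial markers had a peak at 2 of 4 genes, with medians of 41.99 and 40.5 in Hoxa5-deficient and 36.8 and 36.9 in control libraries. Mesenchyme and muscle markers had a peak at 3 of 4 genes in Hoxa5-deficient and 4 of 4 in control libraries, with medians of 76.1 and 79.5 in Hoxa5-deficient and 73.5 and 72.6 in control libraries. Twist1 and Myod1 were higher in both Hoxa5-deficient libraries. Col1a1 was lower, with 73.7 and 82.1 in Hoxa5-deficient and 87.4 and 85.8 in control libraries. Gata3, Gata1 and Pecam1 had no peak in any library, and Myog had none in Hoxa5-deficient libraries. The part of these marker differences in the values of the family was not tested.

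Beyond 100 kb from any protein-coding body, outside the rule for members, 360 regions had a delta protocadherin as their nearest such gene. Of these, 69 were found in both Hoxa5-deficient libraries alone (19.2%, against 16.2% of all regions that far from a gene) and 10 in both control libraries alone (2.78%, against 3.01%). They numbered 232 and 235 in Hoxa5-deficient libraries and 134 and 124 in control libraries. These groups did not overlap, and neither did those of the whole lists. The whole lists held 122736 and 133896 regions in Hoxa5-deficient and 109746 and 106783 in control libraries. They include regions in and near genes. Numbers per library of all regions over 100 kb from a gene are not given, so the sizes of these gaps cannot be compared. Pcdh9 had 75 of the 360, Pcdh20 had 72, Pcdh18 had 65 and Pcdh7 had 53. Around Pcdh7, 15 were found in both Hoxa5-deficient libraries alone (28.3%) and 1 in both control libraries alone (1.89%). Around Pcdh9 these were 14 (18.7%) and 1 (1.33%), against the same 16.2% and 3.01%.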

How the data were processed

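ATAC-seq peak lists of 4 libraries were used, 2 Hoxa5-deficient and 2 control, grouped by their titles. Per the submitters' processing notes, reads were handled with Bowtie2 2.3.4.3 and MACS2 2.2.4, besides FastQC 0.11.9 and SAMtools 1.9, on mm10; parameters and any shift of reads for Tn5 are not stated there. Each library's deposited list gives per peak a score, capped at 1000 by the authors, a fold ratio over background, and −log10 values of p and q. Other deposited columns are base positions. The lists held 127458 and 138248 intervals in Hoxa5-deficient and 115089 and 113505 in control libraries, and a longer list lengthens counts of regions. Read depth is not stated in the lists, so no interval for counting error is given.

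Regions were assigned to the bodies of protein-coding RefSeq genes (GRCm38.p6). Rank scores were fitted in limma 3.58.1 with a variance trend, group only; the fit was checked on simulated data. P-values measure the spread between these libraries, called biological replicates by the submitters. In limma the spread of each region was moderated toward that of other regions of similar mean score, so it is not the region's own alone. Rank scores of same-numbered libraries did not deviate together (correlation −0.00125 over 65789 regions). The labels state no pairing, and with 2 libraries per group this correlation cannot exclude one. Named regions are, per gene, the one at the start and the strongest shared one, those past the limma threshold, and the 8 highest ones found in 1 genotype per direction. Of those 8 in control libraries alone, the weakest are given together. Not every one of the 8 per direction is named. A further interneuron marker is not reported here. The genes and lists were chosen with earlier results of these data known. Alternatives were a stricter q, equal list lengths, 200 bp summit windows, 0.5 of the region covered, 50 kb, fold, another scale, no trend, a replicate block and leaving out each library.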

Additional observations from a re-analysis of the deposited data

How the results depend on the processing

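Counts of regions found in 1 genotype moved with the definition of a region. With peaks of −log10 q of 5 or more, Hoxa5-deficient-only regions were 12 inside bodies (17.1%, against 12.2% over all genes) and 8 outside (14.8%, against 11.9%). Control-only regions were 3 inside (4.29%, against 4.28%) and 2 outside bodies (3.70%, against 4.73%). Hoxa5-deficient libraries then had a mean of 22.5 more member regions than control libraries (33 before). The median percentile of shared regions was 53.8 (65.0 before). With equal numbers of intervals, Hoxa5-deficient-only regions inside were 10 (7.63%, against 7.49% over all genes) and the excess 11.5. Summit windows, and a cover of at least 0.5 of the region, each gave 16 Hoxa5-deficient-only regions outside. Their share was 11.4% with windows (against 8.84% of all regions outside) and 16.2% with the cover (against 12.0%). Both settings gave an excess of 45, and the 0.5 cover a median percentile of 72.6. Within 50 kb there were 4 Hoxa5-deficient-only (6.67%, against 8.37%) and 2 control-only regions outside (3.33%, against 3.75%), with an excess of 25. Leaving out each library gave 23 to 33 Hoxa5-deficient-only and 5 to 21 control-only regions inside, 10 to 23 and 5 to 11 outside, an excess of 30 to 39 and a median percentile of 62.8 to 64.0.

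In limma, fold in place of −log10 p gave 4 lower member regions, with 4034 lower regions in all, and ended 4 of the 15 calls (adjusted p 0.0760 inside Pcdh8, 0.0532 at 5.94 kb into Pcdh9, 0.103 outside Pcdh1 and 0.0670 outside Pcdh19). The stricter q gave 8 calls at members, 4 higher and 4 lower, with 4739 higher and 3917 lower in all. Without the trend there were 2 calls at members, 2 higher and 0 lower (12 and 11 at an unadjusted p under 0.05), with 1579 higher and 1083 lower in all. The share of all regions at an unadjusted p under 0.05 was not counted at this setting. Leaving out each library gave 10 to 19 calls at members, 3 to 11 higher and 4 to 9 lower, with 3702 to 9264 higher and 4704 to 5922 lower in all. The replicate block gave 17 calls at members, 9 higher and 8 lower, with 8593 and 7821 in all, and ended none of the 15 calls; for presence it has no separate value. No named region reversed where it could be followed, which was 8 of the 15 under the stricter q, 14 with summit windows and 15 otherwise. Those not followed under the stricter q included the regions 12.1 kb before Pcdh18, 51.0 kb from Pcdh8 and both at Pcdh17. The rest were those 47.7 kb into Pcdh9, 85.5 kb outside Pcdh9 and inside Pcdh11x. The cause of the changes between settings was not tested. Peaks near the lists' ends limit counts of weak regions.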
